A study of Mus musculus with 42 samples.

Results

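Translational efficiency was compared between genes in untreated acute myeloid leukaemia cells taken from the bone marrow of 5 mice. For each gene the ribosome footprint level was divided by the mRNA level of the same mouse. The genes described are protein-coding genes with a mean level of at least 10 CPM (counts scaled to library size) in both kinds of library over the 5 mice. Of 55487 gene rows, 5624 met that rule, and they are called members below. They were ranked by the mean log2 ratio of footprints to mRNA, and described by gene class and at both ends of the ranking.

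The leukaemia is driven by MLL-AF9, a fusion oncogene of acute myeloid leukaemia, and its cells carry green fluorescent protein (GFP) under ubiquitin control and luciferase driven by the beta-actin promoter. Cells harvested from a terminally ill mouse were grown ex vivo and injected intravenously into male wild-type recipients 8 to 10 weeks old that received no preconditioning. All mice thus carried leukaemia from 1 source and kept their own marrow. The 5 mice described here, labelled AA vehicle, ate the standard amino acid diet (AA) and received PBS. The 16 mice used for comparison were 4 on the AA diet treated with 5+3 (cytarabine at 100 mg/kg daily for 5 days, with doxorubicin at 3 mg/kg on the first 3 of them), 5 on a diet free of branched-chain amino acids (BCAA) given PBS, and 7 on the BCAA-free diet treated with 5+3. Viable GFP-positive cells were sorted at the time of maximum response to chemotherapy. Lysis was in cycloheximide, which holds elongating ribosomes in place. A small share of each lysate became an mRNA library by Smart-seq2, while RNase I digestion of the remainder and a sucrose cushion yielded ribosome footprints.

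A ribosome shields the stretch of mRNA it sits on from RNase, so the footprints of a gene reflect how many ribosomes are on its mRNAs. Dividing by the mRNA level gives the relative ribosome load per mRNA, called translational efficiency. It differs between gene classes because of features such as upstream open reading frames, iron-responsive elements and the pyrimidine tract at the start of mRNAs that encode the translation machinery. In myeloid leukaemia, translation is of interest because the cells divide fast and depend on short-lived proteins such as MYC and MCL1. Here the ratio is log2 of (footprint CPM + 0.5) over (mRNA CPM + 0.5), minus the median over the members in that mouse, so 0 is the median member of a mouse and 1 is 2-fold above it. Ratios were not divided by a length: footprints cover coding sequence and mRNA reads the whole transcript, so a gene whose coding sequence is a small share of its transcript has a lower ratio at equal ribosome density.

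The mRNA libraries held 30996200 to 53116576 counts and the footprint libraries 2697092 to 6175596, so that 1 count is worth 0.162 to 0.371 CPM in footprints. Markers listed for the leukaemia were Ptprc, Kit, Mpo, Elane, Hoxa9, Meis1 and Spi1. All 7 were detected, and they summed to 6176 to 22663 CPM in mRNA and 5202 to 8115 CPM in footprints. This sum does not measure the share of leukaemia cells. Markers of other marrow cells were lower: mature neutrophil markers summed to 953 to 2142 CPM in mRNA and 333 to 447 CPM in footprints, and the erythroid, T and NK, B, megakaryocyte, endothelial and stromal lists each stayed at or below 75.0 CPM in mRNA and 137 CPM in footprints, with Cd3e and Trac at 0 in footprints. In footprints 22 to 27.7% of counts lay on pseudogene rows, in mRNA 0.275 to 0.555%. The members took 78.4 to 82.0% of counts in mRNA and 37.4 to 41.6% in footprints. Replicate 4, and to a lesser degree replicate 2, stood apart in mRNA: ribosomal protein genes took 3.41 and 4.44% of their mRNA counts against 6.01 to 7.41% in replicates 1, 3 and 5, and values that move with this are given by mouse below. The part of depth, of other cells and of this difference between mice in the ratios was not tested. The suffix B on the names of these 5 mice is not explained in the labels, and any batch it marks cannot be told apart from the group. Where a gene's level differs, fewer cells of a type and less RNA per cell cannot be told apart in such bulk samples.

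The ratio spread widely over the members. Its SD over the 5624 members was 1.34, and the 90th percentile (1.53) lay 9.92-fold above the 10th (-1.78). The spread between mice was smaller, with a median SD of 0.38 for a single member (lowest 0.03, highest 2.76). In log2 CPM, members varied more between mice in mRNA (median SD 0.34) than in footprints (median SD 0.19). The edgeR quasi-likelihood test of footprints against mRNA within mice, with Benjamini-Hochberg adjustment over all 19408 genes tested and a threshold of 0.05, placed 1989 members above the median member (35.4%) and 2017 below it (35.9%). It placed 1618 in neither direction. With TMM scaling, which put the median member at -0.41, the counts were 1310 above and 2684 below, so lists and genes close to 0 depend on the choice of 0. Over all genes tested, members or not, 45.6% passed above and 34.2% below. By size alone, 1169 members (20.8%) lay 2-fold or more above the median member and 1275 (22.7%) 2-fold or more below. These shares are the background against which each gene list is read. Mean log2 mRNA and footprint levels correlated across members with a Pearson r of 0.57, where genes are not independent replicates and both levels share the gene's length. The plot of levels shows this cloud, with the histones far above it and the mitochondrial and small-protein genes below.

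**Figure D1:**
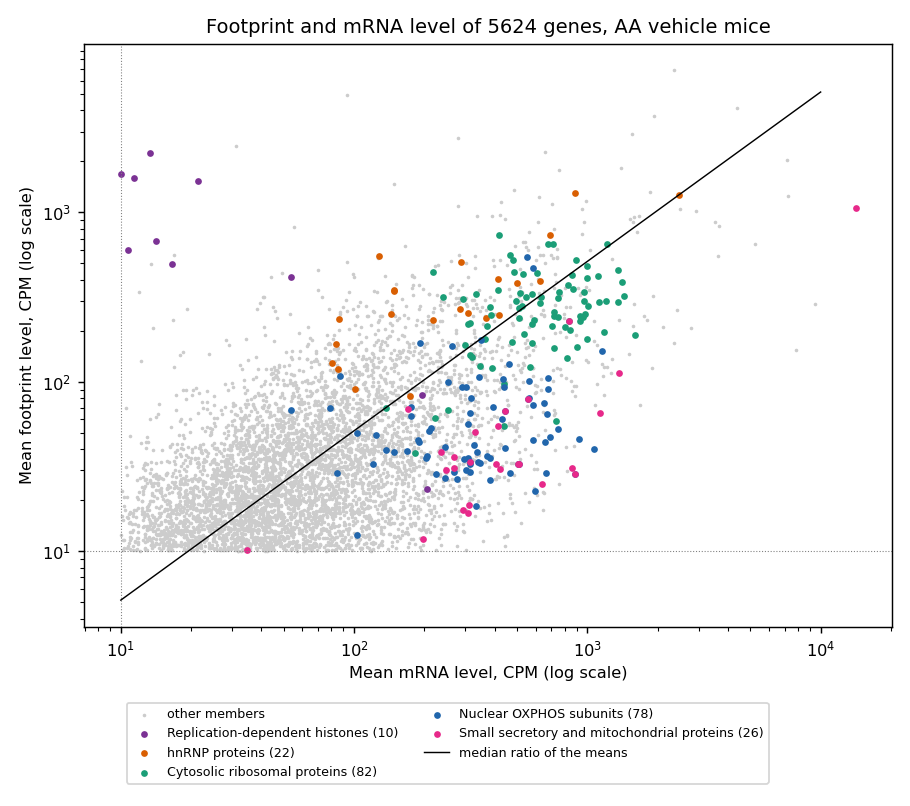
Mean footprint level against mean mRNA level of each member over the 5 AA vehicle mice, both in CPM on log axes; coloured points are members of 5 gene lists, dotted lines mark the minimum of 10 CPM and the solid line the median ratio of the means. Histones lie above the line at low mRNA, and most nuclear OXPHOS subunits and small proteins lie below it.

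The minimum set which genes could be seen at the low end. Among protein-coding genes, 2797 reached 10 CPM in mRNA only and 345 in footprints only, so genes with few footprints on abundant mRNA are missing below, and genes with little mRNA are missing above. Nudt1, at 60.9 CPM of mRNA and 10.0 CPM of footprints, Pcbd2 (118 and 10.0 CPM) and Cbx8 (31.9 and 10.0 CPM) were just inside. Fam207a (49.6 and 9.99 CPM), Agrn (11.4 and 9.99 CPM) and Kdsr (16.7 and 9.99 CPM) were just outside.

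The machinery of translation did not move as a block. Of 91 cytosolic ribosomal protein rows, 82 were members, and their median ratio was -0.36 ± 0.73 (SD between mice, n = 5). Of these, 12 passed the test above the median member and 27 below. By mouse the median was -0.86, -0.16, -0.73, 0.91 and -0.66 in replicates 1 to 5. Only replicate 4 was above 0, and it also had the lowest share of ribosomal protein mRNA; without it the median was -0.63. In addition, 62 of the 82 have a flagged pseudogene copy, and the median turned to 0.43 when the copies' counts were added. The large subunit (49 members) had a median of -0.12 and the small subunit (33 members) of -0.36. Rps14, a small subunit protein, had mRNA at 2005, 1211, 2194, 871 and 1753 CPM and footprints at 166, 161, 197, 232 and 191 CPM in replicates 1 to 5. Its footprints stayed close together while its mRNA was lowest in replicates 2 and 4, and its log2 ratio was -2.08 ± 0.80. Rps27l, a p53-induced relative of Rps27, had the lowest ratio of the list at -2.66 ± 0.63, and Rpl27a the highest at 2.07 ± 0.92. The Rpl27a row overlaps the small nucleolar RNA Snora3, whose row held 38.4 to 60.0% as many footprint counts as Rpl27a itself.

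Elongation factors and other genes grouped for a pyrimidine tract at the mRNA start were higher as a list, though not all show the tract (below). All 21 were members, with a median ratio of 0.94 ± 0.35; 11 passed the test above the median member and 1 below, and without replicate 4 the median was 0.76. Eef1a1, the factor that brings aminoacyl-tRNA to the ribosome, had mRNA at 1896, 2539, 2090, 1390 and 1742 CPM and footprints at 3186, 2954, 4247, 4064 and 4033 CPM. Footprints exceeded mRNA in each mouse, and the log2 ratio was 1.88 ± 0.51 (edgeR adjusted p = 0.000119). Tpt1, a growth-related protein encoded by a classic pyrimidine-tract mRNA, sat at the median member: its ratio was 0.01 ± 0.82 (edgeR adjusted p = 0.977), from -0.71 to -0.11 in 4 mice and 1.41 in replicate 4. Its 6 flagged copies held 70.3% of the footprint CPM of gene plus copies, and with their counts added the ratio of Tpt1 was 1.69 (edgeR adjusted p = 0.000662). The row of Snora31, inside Tpt1, had 44.5% as much footprint CPM as Tpt1. Pabpc1, the poly(A)-binding protein, had the lowest ratio of the list and was the 1 gene counted below, at -0.62 ± 0.38, a call lost with a minimum of 5 CPM and without replicate 1, 2 or 5. In the 16 other mice it was at -0.64 ± 0.50 (edgeR adjusted p = 0.000154). Rack1, a scaffold protein of the small subunit, was at -0.31 ± 0.53 (edgeR adjusted p = 0.282).

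The starts of 4 of these mRNAs are shown because the tract that names the class can be read there in Rps6 and Eef1a1 and not in Rpl41 and Tpt1. Each run gives the 8 bases before the RefSeq start and the first 22 bases from it on GRCm38.p6, 5′ to 3′, with the longest unbroken run of C and T in capitals.
Rps6 (chr4:86857346-86857375, minus strand): agtcgggCCTCTTTTTCgtgacgcctccca
Eef1a1 (chr9:78481703-78481732, minus strand): ccgCCCTCTTCCCgagggtgggggagaacg
Rpl41 (chr10:128549147-128549176, minus strand): gccggCTCggaagtgacgacaccgagcacg
Tpt1 (chr14:75845248-75845277, plus strand): ctgacgacagTTCCgggggagccgcggacg
Rps6 and Eef1a1 hold runs of 10 at the start, Rpl41 and Tpt1 runs of 3 and 4 in this window. Within 50 bases on either side of the start the longest runs are 10 in Rpl41 and 6 in Tpt1. The mean log2 ratios of the 4 genes were 1.17 for Rps6, 1.88 for Eef1a1, -0.83 for Rpl41 and 0.01 for Tpt1. A run of 8 or more C or T on the sense strand within 50 bases of the RefSeq start was found for 49 of 61 ribosomal protein members with a promoter entry (80.3%), for 10 of 15 of the elongation list (66.7%), for 1468 of 4585 members (32.0%) and for 11741 of 32851 windows in all (35.7%). Ribosomal protein members with the run had a median ratio of -0.32 and those without it -0.20. In the elongation list the medians were 1.19 with the run and 0.26 without. RefSeq starts are annotated positions, and no match says only that these letters are absent from this window.

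Initiation factors and the enzymes that feed translation split by gene. The 38 initiation factors had a median of -0.20 ± 0.21, with 15 above and 13 below. Eif5a, the hypusinated factor that relieves stalled ribosomes, was low: mRNA at 3229, 4710, 2912, 4215 and 3108 CPM met footprints at 473, 518, 583, 645 and 558 CPM, a log2 ratio of -1.76 ± 0.25 (adjusted p = 2.09e-10 in the 16 other mice). Eif4ebp1, the repressor of cap-binding eIF4E, was the lowest of the list at -3.08 ± 0.58. Eif2s3x, a subunit of the initiator tRNA carrier eIF2, was the highest at 3.91 ± 0.16, and Eif4a2, an RNA helicase, followed at 3.01 ± 0.41; the row of Snora81, inside Eif4a2, held 73.5 to 91.9% as many footprint counts as Eif4a2. Of 20 cytosolic tRNA synthetases, 14 passed above and 0 below, with a median of 0.85 ± 0.28. Iars and Lars, which load isoleucine and leucine, were at 2.30 ± 0.60 and 1.72 ± 0.48; the pseudogene row Rps19-ps4, inside Lars, had 78.3% as much footprint CPM as Lars and 1.00 CPM of mRNA. Aars, Hars and Nars, which load alanine, histidine and asparagine, were at -0.14 ± 0.32, -0.29 ± 0.11 and -0.36 ± 0.69 and did not pass the test; all 3 passed below with TMM scaling, Nars also without replicate 3, and Hars also in a fit of all 42 libraries and with a minimum of 20 CPM. Ribosome biogenesis genes (37) had a median of 0.68 ± 0.14 with 22 above and 8 below. Nucleolin (Ncl, 1.94 ± 0.41) and Utp20 (2.63 ± 0.45), which processes pre-rRNA, were high, and Nop10 (-2.30 ± 0.64) and Nhp2 (-2.87 ± 0.42), small proteins of the RNP that makes pseudouridine, were low.

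Nuclear genes for mitochondrial proteins had few footprints for their mRNA. All 78 nuclear subunits of oxidative phosphorylation (OXPHOS) were members, and 67 passed the test below the median member against 6 above. Their median ratio was -1.79 ± 0.56, a level 3.46-fold below the median member. By mouse the median was -2.35, -1.64, -2.12, -0.95 and -2.10, below 0 in each, least so in replicate 4, and -2.09 without it. Complex I had a median of -2.18 (36 members), complex IV of -2.04 (11), complex III of -1.58 (9), complex V of -1.09 (17) complex II of -0.94 (4), and cytochrome c was at -1.11. Ndufb8, a complex I subunit, had mRNA at 1228, 1039, 1344, 665 and 1077 CPM and footprints at 39.3, 40.7, 35.3, 41.9 and 44.4 CPM. Every mouse had many times more mRNA than footprints, and the ratio was -3.74 ± 0.59 (adjusted p = 7.83e-13 in the 16 other mice). At the other end, Uqcrc2, a core protein of complex III, was at 1.32 ± 0.38, and Atp5g2, a gene for the ring subunit of ATP synthase, at 1.28 ± 0.45.

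Most mitochondrial ribosomal protein genes that could be measured were low. Of 77 such genes 68 were members, and the other 9 reached 10 CPM in mRNA only. The median was -1.71 ± 0.21, with 58 below and 2 above. Mrpl33, a small protein of the large subunit, was the lowest at -3.77 ± 0.78, and Mrps22 (1.05 ± 0.47) and Mrps5 (0.88 ± 0.39) were the highest. A list of 29 genes, mainly for small secretory and mitochondrial proteins, had 26 members. It was lower still, at -2.58 ± 0.70 with 25 below and 0 above. It also holds other small proteins, such as Tmsb4x and Rpl41. Some of its genes, such as Uqcr11, Ndufa1 and Mrpl33, are in the OXPHOS or mitochondrial ribosomal list too, so these lists are not separate. By mouse the median of the small-protein list was -3.22, -2.10, -2.93, -1.58 and -3.01. Here too replicate 4 was closest to the median member, followed by replicate 2.

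Genes encoded in mitochondrial DNA, which are translated by mitochondrial ribosomes, could be followed only in part. Of 13, 7 were members, with a median of -0.54 ± 0.42, 2 above and 3 below. The other 6 reached 10 CPM in footprints only. Among them mt-Co2 had a mean of 1.21 CPM in mRNA and 177 CPM in footprints, mt-Co3 1.37 and 206 CPM, and mt-Atp6 0.793 and 189 CPM. In contrast, mt-Co1, the catalytic subunit of complex IV, had mRNA at 421, 805, 308, 640 and 392 CPM and footprints at 562, 481, 469, 392 and 405 CPM. Its ratio was 0.86 ± 0.50, and mRNA exceeded footprints in replicates 2 and 4. The ratio of mt-Nd1, a complex I subunit, was -2.53 ± 0.52. The near absence of mt-Co2, mt-Co3 and mt-Atp6 from the mRNA libraries means that the list's median describes the genes the mRNA libraries could count.

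Replication-dependent histones, which package newly made DNA in S phase, had the highest ratios of all. Background bears on this: their mRNAs end in a stem-loop in place of a poly(A) tail, and Smart-seq2 primes on poly(A). Of 69 such rows only 8 were members, while 60 reached 10 CPM in footprints only. Summed over the 69 rows, histone mRNA was at 483, 121, 165, 140 and 242 CPM and footprints at 104967, 124446, 64718, 93972 and 101395 CPM in replicates 1 to 5. Near-identical rows held near-equal footprint levels, and how reads that fit several rows were counted is not given. The footprint sums may therefore count a read more than once. Footprints were far higher than mRNA in each mouse, replicate 1 had the most mRNA and replicate 3 the fewest footprints. All 8 members passed above, with a median ratio of 7.37. The list as first drawn, by symbol, had 72 rows and 10 members with a median of 6.90 ± 0.92, 8 above and 1 below. Hist1h4d (chr13:23581568-23581969) had mRNA at 31.1, 4.20, 2.87, 6.69 and 12.3 CPM and footprints at 1565, 1914, 1157, 1675 and 1641 CPM, a ratio of 8.45 ± 1.31 (adjusted p = 2.87e-16 in the 16 other mice). Its 11 near-identical H4 rows each held 1591 to 1887 CPM of footprints on average, against 0.0274 to 11.4 CPM of mRNA. Its other 2 members did not share the high ratio. H13 is no histone but a minor histocompatibility antigen with a like symbol, and it was at -0.26 ± 0.10 (edgeR adjusted p = 0.18). H1f0, a linker histone of resting cells whose mRNA is polyadenylated, was at -2.17 ± 0.28. How much of the histone ratio comes from the mRNA libraries was not tested.

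Replacement histones, in general made throughout the cell cycle from polyadenylated mRNA, were mostly low. Of 7 members 5 passed below and 2 above, and the median was -1.53 ± 0.43. H3f3b, a gene for histone H3.3, had mRNA at 2467, 2280, 2777, 1933 and 2317 CPM and footprints at 169, 183, 153, 185 and 154 CPM. Its ratio was -2.86 ± 0.45, while H3f3a, which encodes the same protein and has 2 flagged copies, was at 1.02 ± 0.22. H2afz was at -1.53 ± 0.46 and H2afv at -3.90 ± 0.83. H2afx, the histone phosphorylated at DNA breaks, was the highest at 2.44 ± 0.33, and whether its mRNA ends like the others was not examined.

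Genes grouped for upstream open reading frames (uORFs), stress genes among them, were low as a list, with exceptions. Whether uORFs restrain these mRNAs here was not examined. Hoxa9, the lowest of the list at -2.62, Cebpa and Cebpb are also in the transcription factor list below. Of 24 rows 18 were members, 11 below and 4 above, with a median of -0.69 ± 0.14. Atf4, the transcription factor of the integrated stress response, had mRNA at 117, 133, 187, 121 and 144 CPM and footprints at 12.2, 26.1, 14.1, 37.6 and 11.9 CPM. Footprints were higher in replicates 2 and 4 than in the others, and the ratio was -1.95 ± 1.01 (edgeR adjusted p = 0.000424). Its target Ddit3 fell short of the minimum, with 28.8 CPM of mRNA and 1.20 CPM of footprints, as did Atf5 and Gadd45a, which reached 10 CPM in mRNA only. Cebpb, a myeloid transcription factor made as several isoforms from 1 mRNA, was at -2.27 ± 0.52. Catalase (Cat, 2.13 ± 0.52) and the glutamyl-prolyl-tRNA synthetase Eprs (1.52 ± 0.34) were the highest of the list.

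Transcription factors of the leukaemia did not share 1 level. Of 32 genes 24 were members, with a median of -0.28 ± 0.24, 4 above and 10 below. Hoxa9 (chr6:52223097-52227370), the homeobox gene that MLL fusions keep active, had mRNA at 310, 466, 327, 479 and 313 CPM and footprints at 30.4, 38.2, 27.8, 35.1 and 26.3 CPM. Both levels were higher in replicates 2 and 4, the ratio was nearly the same in all mice, and it averaged -2.62 ± 0.14 (edgeR adjusted p = 3.19e-07). Meis1, its cofactor, was at the median member: mRNA at 70.8, 115, 115, 77.7 and 82.6 CPM and footprints at 36.3, 34.3, 46.6, 48.7 and 49.2 CPM gave -0.14 ± 0.43 (edgeR adjusted p = 0.505). Lmo2, a bridging protein of stem cell transcription complexes, was the lowest at -2.95 ± 0.44, and Erg, an ETS factor, the highest at 2.09 ± 0.56. Myb, needed by MLL-AF9 cells, was at -0.44 ± 0.42 (edgeR adjusted p = 0.0974), and passed below with TMM scaling, in a fit of all 42 libraries, with a minimum of 20 CPM and without replicate 4.

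Among genes of short-lived proteins the ratio ranged as widely. Myc (chr15:61985341-61990361) had mRNA at 105, 182, 107, 316 and 149 CPM and footprints at 159, 210, 147, 153 and 170 CPM. The footprint levels stayed together while mRNA varied, the ratio was above 0 in 5 of 5 mice (0.07 in replicate 4), and it averaged 1.02 ± 0.56 (edgeR adjusted p = 0.00246). Mcl1, the survival protein, was at -0.04 ± 0.36 (edgeR adjusted p = 0.813). Of 31 immediate-early genes only 8 were members, with a median of -0.54 ± 0.29, 2 above and 4 below, and 17 lay under the minimum in both kinds. Ier2 was the lowest of them at -2.52 ± 0.39, and Zfp36l2, which speeds the decay of AU-rich mRNAs, was at 0.86 ± 0.49, a call lost under TMM scaling. In the polyamine pathway, Odc1, which makes putrescine, was at -0.87 ± 0.32 (edgeR adjusted p = 0.00122), Amd1, which makes the aminopropyl donor, at 0.94 ± 0.26 (edgeR adjusted p = 0.000599), and Oaz1, the antizyme that needs a frameshift, at -2.55 ± 0.55 (edgeR adjusted p = 5.63e-06). Slc7a5, the carrier for leucine and other large amino acids, was at 0.41 ± 0.58 (edgeR adjusted p = 0.128). Bcat1, which starts the breakdown of branched-chain amino acids, was not measurable, with means of 0.345 CPM in mRNA and 0.294 CPM in footprints.

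Iron and selenium genes held the lowest single ratio. Ftl1, the ferritin light chain (chr7:45457944-45459886), had mRNA at 9053, 7294, 7956, 6610 and 8240 CPM and footprints at 150, 150, 145, 208 and 123 CPM. No mouse came near the median member, and the ratio was -4.73 ± 0.56, or 26.6-fold below it. As the lowest member, Ftl1 is described without a test in these mice. Fth1, the heavy chain, was at -2.02 ± 0.55 (edgeR adjusted p = 2.11e-05). As background, both carry an iron-responsive element in the 5′ part of the mRNA that blocks initiation when iron is scarce. Sdhd, a subunit of complex II, was at -2.39 ± 0.23. The transferrin receptor Tfrc, whose elements lie in the 3′ part and stabilise the mRNA, was at 1.66 ± 0.34. The median of the 5 members was -2.02 ± 0.47, and it turned to 1.50 for the 3 left when genes with flagged copies, both ferritins, were removed.

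Selenoproteins, which decode UGA as selenocysteine, were low: 14 of 18 rows were members, 10 below and 1 above, with a median of -1.51 ± 0.26. Gpx1 (chr9:108339080-108340342), the glutathione peroxidase, had mRNA at 9758, 8896, 12055, 7042 and 9315 CPM and footprints at 293, 364, 214, 322 and 255 CPM. All 5 mice lay far below the median member, and the ratio was -4.09 ± 0.67 (adjusted p = 1.40e-15 in the 16 other mice). Selenof and Selenoh, of the endoplasmic reticulum and nucleolus, were at -2.79 ± 0.43 and -3.13 ± 0.60. Txnrd1, the thioredoxin reductase, was the 1 member that passed above, at 0.93 ± 0.19.

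The families of RNA-binding proteins that act on splicing went apart. Of 22 hnRNP genes, which coat nascent RNA, 17 passed above and 0 below, with a median of 1.08 ± 0.15. Hnrnpu had mRNA at 878, 787, 753, 1125 and 862 CPM and footprints at 1228, 1128, 1482, 1243 and 1428 CPM. Footprints exceeded mRNA in all mice, and the ratio was 1.50 ± 0.21 (edgeR adjusted p = 0.000111). Hnrnpf was the highest at 3.25 ± 0.80, and Hnrnpa2b1, with the most mRNA counts of the list, was at -0.03 ± 0.26 (edgeR adjusted p = 0.915). Of 25 genes of SR and related splicing factors, 15 passed below and 2 above, with a median of -0.72 ± 0.37. Srsf5 had mRNA at 1065, 984, 1583, 929 and 1808 CPM and footprints at 143, 139, 136, 146 and 123 CPM. Its footprints hardly varied, and the ratio of -2.22 ± 0.66 followed the mRNA. Srsf9 was the lowest at -3.02 ± 0.53, Clk4, a kinase of SR proteins, was at -2.38 ± 0.25, and Ddx5, an RNA helicase, the highest at 1.99 ± 0.28. The difference between both lists was not tested.

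Mitosis genes were mostly above the median member, while DNA replication genes were divided. The mitosis list had 32 members, 21 above and 6 below, and a median of 1.03 ± 0.21. Mki67, the proliferation antigen, had mRNA at 182, 174, 194, 117 and 160 CPM and footprints at 622, 651, 669, 515 and 716 CPM. Footprints were several times mRNA in each mouse, and the ratio was 2.88 ± 0.26 (edgeR adjusted p = 6.37e-14 in the 16 other mice). The motor Kif11 and topoisomerase Top2a were at 2.37 ± 0.41 and 2.08 ± 0.44, but Cenpa, the centromeric histone, and Birc5, the small protein survivin, were at -2.92 ± 0.29 and -2.83 ± 0.57. Among 45 chromatin regulators 26 were above and 6 below (median 0.70 ± 0.18), from the maintenance methyltransferase Dnmt1 at 2.60 ± 0.10 to Kmt2e at -1.73 ± 0.36. DNA replication genes (40) had 19 above and 14 below, and their median of 0.39 ± 0.17 turned to -0.04 with TMM scaling. Pole, the leading-strand polymerase, was at 2.25 ± 0.15, and Gins2, a small helicase subunit, at -2.19 ± 0.58. Genes with zinc finger symbols (Zfp, Zkscan and Zscan), mostly C2H2 transcription factors, had 59 of 396 rows as members, 28 above and 11 below, and their median of 0.42 ± 0.15 turned to -0.01 with TMM scaling and to -0.29 with a minimum of 20 CPM. Zfp207, the member of this list with the most mRNA counts, was at -1.06 ± 0.52 (edgeR adjusted p = 0.00187) and at -0.05 ± 0.46 in the 16 other mice; that difference was not tested.

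Chaperones, glycolysis and the actin cytoskeleton contained many genes above the median member. The list of 28 mainly cytosolic chaperones, with the mitochondrial Hspd1, Hspa9 and Hspe1 among them, had 19 above and 3 below (median 0.95 ± 0.14). Hspa8, the constitutive Hsc70, had mRNA at 508, 758, 493, 929 and 609 CPM and footprints at 1937, 2114, 2364, 2185 and 2742 CPM. Its ratio was 2.75 ± 0.29 (edgeR adjusted p = 3.90e-15 in the 16 other mice). Hspe1, the small partner of the mitochondrial chaperonin, was the lowest at -1.45 ± 0.85. In the endoplasmic reticulum 10 of 23 chaperones were above and 8 below, and the median of 0.12 ± 0.21 turned to -0.31 with TMM scaling, to -0.03 with a minimum of 20 CPM and to -0.02 without replicate 3. Hyou1, a large Hsp70 relative, was at 3.60 ± 0.38 and Fkbp2, a small prolyl isomerase, at -2.45 ± 0.71. Glycolysis had 12 of 17 members above and 1 below (median 0.83 ± 0.36). The 1 below was Gapdh, with mRNA at 455, 855, 370, 939 and 374 CPM and footprints at 102, 107, 66.5, 106 and 97.0 CPM. Its ratio was -1.61 ± 0.37 (edgeR adjusted p = 4.85e-05), while Pgk1, the next enzyme of the pathway, was at 2.25 ± 0.15. Both have 2 flagged copies, which held 3.05% of the footprint CPM of gene plus copies for Gapdh and 16.1% for Pgk1. Pseudogene rows under other names are not flagged, and their part in these ratios was not tested. Eno1 was at 0.83 ± 0.67 (edgeR adjusted p = 0.0188), a call lost under TMM scaling, with a minimum of 20 CPM, without replicate 1, 3 or 5 and without the mouse block.

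In the actin list 15 of 29 members were above and 6 below (median 0.82 ± 0.23). Actb, cytoplasmic beta-actin, had mRNA at 2688, 1719, 2614, 2032 and 2660 CPM and footprints at 6931, 6698, 6480, 6753 and 7586 CPM. Footprints exceeded mRNA in each mouse, and the ratio was 2.51 ± 0.41 (edgeR adjusted p = 1.45e-05). Actin-binding proteins differed, with Tmsb4x, which holds free actin, at -2.77 ± 0.56, profilin (Pfn1) at -2.06 ± 0.21 and cofilin (Cfl1) at 0.14. Arpc1b, a subunit of the Arp2/3 complex that branches actin, was at -2.35 ± 0.23. Of 37 proteasome subunits 21 were below and 4 above (median -0.55 ± 0.15), the catalytic subunit Psmb6 lowest at -2.71 ± 0.37 and Psmd1, of the regulatory particle, highest at 1.01 ± 0.29. Ubiquitin and related modifiers (13) had 7 below and 4 above (median -0.81 ± 0.58), with Sumo3, a small modifier, at -3.05 ± 0.37. The plot of gene lists sets these medians side by side.

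**Figure D2:**
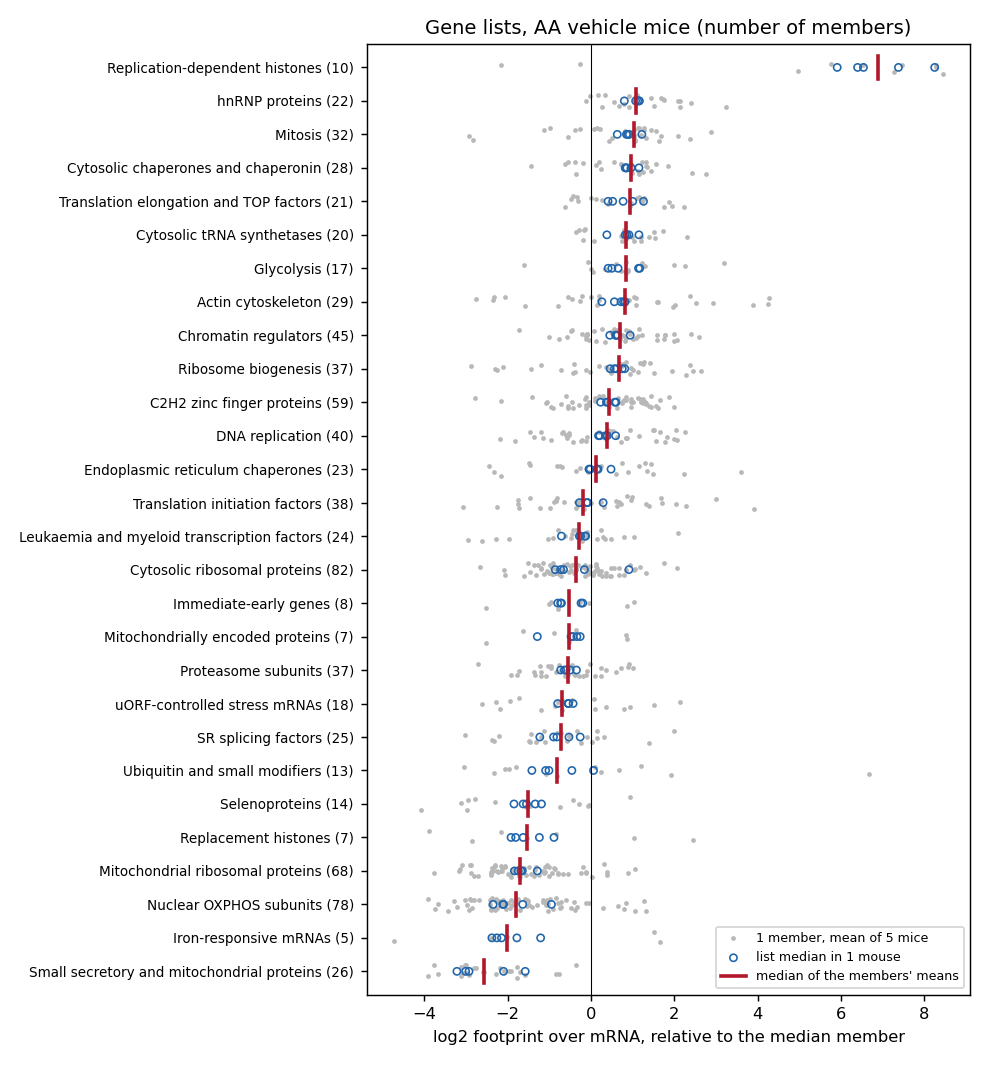
Log2 ratio of footprints to mRNA, relative to the median member, for the members of 28 gene lists: grey points are members (mean of 5 mice), open circles the list's median in each mouse and red bars the median of the members' means. Histones stand far right at 6.90, and the OXPHOS (-1.79), mitochondrial ribosomal (-1.71) and small-protein (-2.58) lists lie left of 0 in every mouse.

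The top of the ranking was described without a test, since the ratio chose it. After the histones Hist1h4d, Hist1h2bc (8.28 ± 0.64), Hist1h4i (8.28 ± 0.70), Hist1h2ae (7.46 ± 1.31) and Hist1h1e (7.28 ± 1.54), the highest gene without a flagged copy was Lrrc58 (chr16:37868400-37888857), a leucine-rich repeat protein. Its mRNA was at 35.4, 32.2, 20.7, 31.2 and 35.7 CPM and its footprints at 2515, 2356, 2369, 2444 and 2729 CPM, a ratio of 7.26 ± 0.27 that varied little between mice. The overlapping pseudogene row Gm15725 held 99.5 to 99.6% as many footprint counts as Lrrc58 and 10.9 to 27.2% as many mRNA counts. Trim17 (6.05 ± 0.53) and Hist3h2a (5.77 ± 0.44) overlap at chr11:58954685-58955192, and their footprint counts were equal in 4 of 5 mice and differed by 1 in the other, so the footprints of these genes cannot be told apart here. Plekhh2 was at 5.47 ± 1.71, with a range of 2.67 to 7.28 between mice. The MHC class I genes H2-Q4, H2-Q7 and H2-Q6 were at 5.66 ± 0.43, 5.24 ± 0.95 and 5.17 ± 0.80.

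Further down lay the genes that follow, which were picked after their values were seen and do not stand for all of these ranks. Usp9x, a deubiquitinase, was at 4.36 ± 0.23, Myh9, the heavy chain of non-muscle myosin, at 4.25 ± 0.22, and Dhx9, an RNA helicase, at 4.18 ± 0.45. Ahnak, a giant scaffold protein, had mRNA at 36.5, 4.69, 16.3, 4.27 and 28.0 CPM and footprints at 250, 70.0, 120, 48.9 and 232 CPM. Both levels differed several-fold between mice and moved together, so the ratio stayed at 4.09 ± 0.55. The spliceosome proteins Snrnp200 and Prpf8 were at 3.90 ± 0.28 and 3.74 ± 0.46, Polr2a, the largest subunit of RNA polymerase II, at 3.82 ± 0.34, clathrin heavy chain (Cltc) at 3.38 ± 0.11, fatty acid synthase (Fasn) at 3.32 ± 0.40 and the dynein heavy chain Dync1h1 at 3.30 ± 0.46. Rows whose symbols mark them as copies of other genes lay among them, such as Gmfg-ps at 3.52 and Rpl37rt at 3.51.

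The bottom of the ranking, too, is described without a test in these mice. Ciao2a, of the cytosolic iron-sulfur assembly machinery, had mRNA at 519, 409, 484, 336 and 511 CPM and footprints at 10.0, 11.4, 12.5, 14.7 and 12.7 CPM, a ratio of -4.20 ± 0.55. Glrx5 and Bola2, which also act in iron-sulfur protein assembly, were at -4.14 ± 0.79 and -4.09 ± 1.01. Stk16, a kinase, was at -4.19 ± 0.45 and Bag1, a cochaperone made from several start codons, at -4.18 ± 0.26. Uqcr11, Cox14 and Cox17, small proteins of complexes III and IV or their assembly, were at -3.91 ± 0.88, -3.95 ± 0.90 and -3.81 ± 0.97, and Timm13, a chaperone of mitochondrial import, at -3.80 ± 0.92. In these 4, and in Bola2 and Glrx5, the ratio was least negative in replicate 4, whose mRNA for them was the lowest. Rsrp1, a protein with arginine-serine repeats, varied differently: footprints were at 28.9, 32.9, 81.9, 79.8 and 143 CPM and mRNA at 1295, 1397, 1794, 1815 and 2089 CPM. The plot of both ends gives every mouse.

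**Figure D3:**
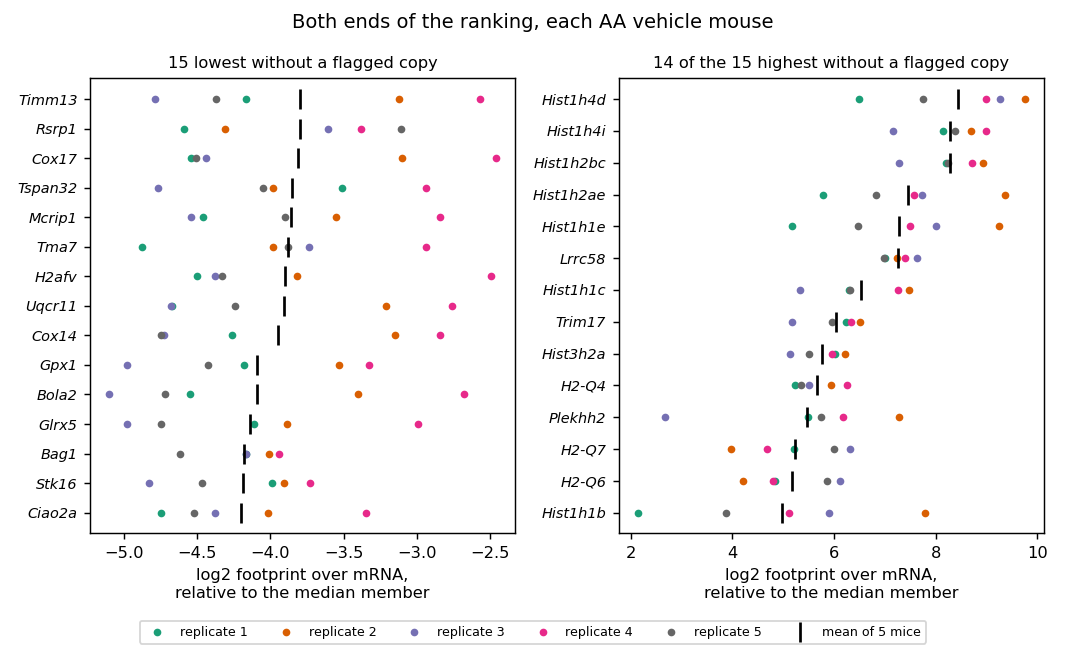
Log2 ratio of footprints to mRNA, relative to the median member, in each of the 5 AA vehicle mice for the 15 lowest (left) and 14 of the 15 highest (right) genes without a flagged copy and with a symbol other than Gm and a number or one ending in Rik; points are mice and bars their mean. The low end runs from -4.20 (Ciao2a) to -3.80 (Timm13) with replicate 4 often the least negative (1810037I17Rik, at -4.25, is left out by its symbol), and the high end from 4.97 (Hist1h1b) to 8.45 (Hist1h4d).

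Genomic span was short at the low end. The lowest 100 members had a median span of 5.84 kb and the highest 100 of 26.8 kb, against 24.8 kb over all members. The lowest 100 had a median mRNA level of 383 CPM and the highest 100 of 28.1 CPM, against 64.6 CPM over all members; mRNA is the denominator of the ratio. Across members the ratio correlated with span with a Spearman rho of 0.43 and with mean mRNA CPM with a rho of -0.54. It did not follow the GC percentage (rho 0.02) or CpG count (rho 0.01) of the 4585 promoters with a sequence. These are descriptions across genes, and span is not coding length, for which no table was used here.

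Rows that share sequence changed what could be read from single genes. A pseudogene copy was flagged by name for 238 members (4.23%), and those copies held a median of 36.5% of the footprint CPM of gene plus copies but 0.234% of the mRNA CPM. In genes named above the copies held, for example, 73.4% of this footprint CPM for Rps6, 48.9% for Hspe1 and 48.3% for Oaz1. Copies held 27.0% for Psmb6, 20.5% for Rpl27a and 18.2% for Eif2s3x. Pgam1, phosphoglycerate mutase, had a ratio of 3.20 ± 0.56, and the row of its copy Pgam1-ps2 held 98.6 to 99.5% as many footprint counts and 0.159 to 1.03% as many mRNA counts. For Eno1 the row Gm4735 held 91.3 to 92.5% as many footprint counts and 0.0673 to 0.398% as many mRNA counts. Apart from named copies, 694 members (12.3%) overlap another gene row whose own footprint CPM is at least 25% of theirs, whether or not reads are shared: a protein-coding row for 475, a pseudogene for 170, a snoRNA for 24 and another kind for 25. They made up 8 of the highest 100 and 13 of the lowest 100. Among them were Psmd1, where the snoRNA row Gm22786 had 27.6% as much footprint CPM, and Odc1, where the snoRNA row Gm22748 had 34.4%. Mfap1a and Mfap1b, neighbouring copies of a spliceosome gene, had equal footprint counts in 3 of 5 mice and counts that differed by 1 in the others.

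Whole families gave other values than their single rows. These families were chosen after values were seen. For the 10 MHC class I rows, the summed footprints over summed mRNA gave a ratio of 0.37 ± 0.11, H2-D1, the row with the most mRNA, gave -1.05 ± 0.09 and the largest footprint row over summed mRNA gave -1.56 ± 0.10. How reads that fit several rows were counted is not given in the sources used here. Cytoplasmic actins stayed high however counted, at 2.82 ± 0.32 summed and 2.34 ± 0.33 for the largest row. Enolase 1 moved from 0.81 ± 0.67 for the largest row to 2.31 ± 0.67 summed. The ferritin light chain stayed low, at -3.10 ± 0.56 summed and -4.75 ± 0.56 for the largest row. Histone H4 stayed at the top, at 10.18 ± 0.89 summed and 6.85 ± 0.89 for the largest row.

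**Figure D4:**
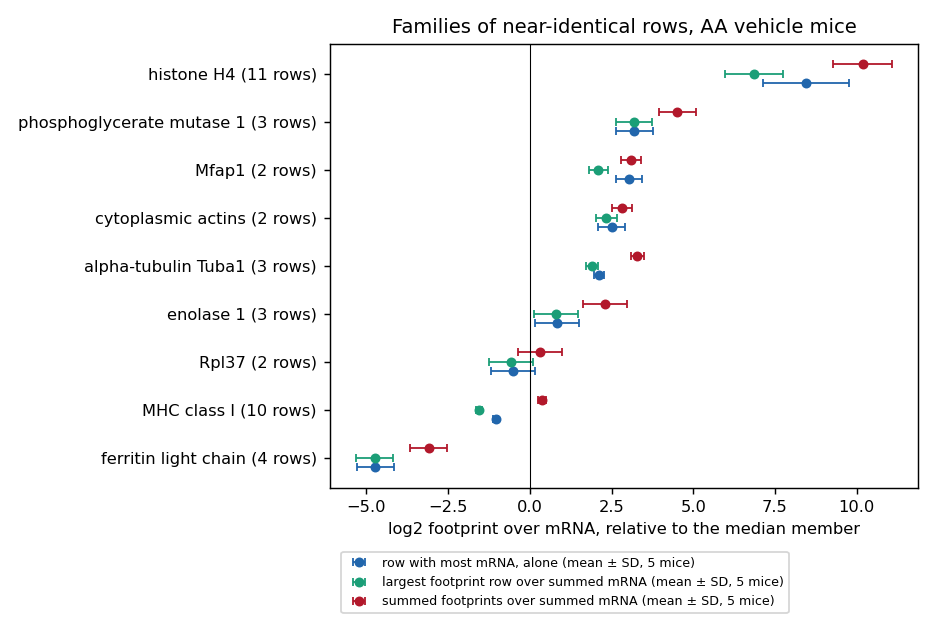
Log2 ratio of footprints to mRNA, relative to the median member, of 9 families of near-identical rows, computed in 3 ways; points are means and bars SDs over the 5 AA vehicle mice. MHC class I lies on both sides of 0 (0.37 summed, -1.05 for H2-D1 alone), while histone H4 and the ferritin light chain keep their side.

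The ranking was then examined in the 16 mice that played no part in choosing it. The same edgeR test in those mice placed 2354 members above the median member (41.9%) and 2367 below (42.1%). All 100 of the highest members passed above and all 100 of the lowest passed below, and each lay on its side in 16 of 16 mice. The median ratio of the highest 100 was 3.15 in the AA vehicle mice and 3.10, 3.02 and 3.30 in the AA 5+3, BCAA vehicle and BCAA 5+3 mice. That of the lowest 100 was -3.27 in the AA vehicle mice and -3.19, -3.71 and -2.97 in the others. Across members the mean ratios correlated with a Spearman rho of 0.98 with the 16 mice together, and of 0.98, 0.96 and 0.96 with the 3 groups, where the same genes share their sequence and the same kind of libraries in all groups.

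In those mice the list medians were 7.18 for the replication-dependent histones, 1.16 for hnRNP genes, 0.70 for the elongation list, -0.41 for ribosomal proteins, -1.62 for mitochondrial ribosomal proteins, -1.84 for OXPHOS and -2.58 for the small proteins. Among single genes, Hoxa9 was at -2.44 ± 0.27, Atf4 at -1.96 ± 0.63, Ftl1 at -4.15 ± 0.76 and Gpx1 at -3.91 ± 0.52 (SD, n = 16), each below the median member in 16 of 16 mice. Myc was at 0.69 ± 0.36 and above it in 16 of 16, and Meis1 at 0.11 ± 0.26 and above it in 10 of 16. Trim17 and Hist3h2a, which share reads, were at 7.00 ± 1.01 and 6.71 ± 0.99. Differences between the treatment groups in these values were not tested here.

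**Figure D5:**
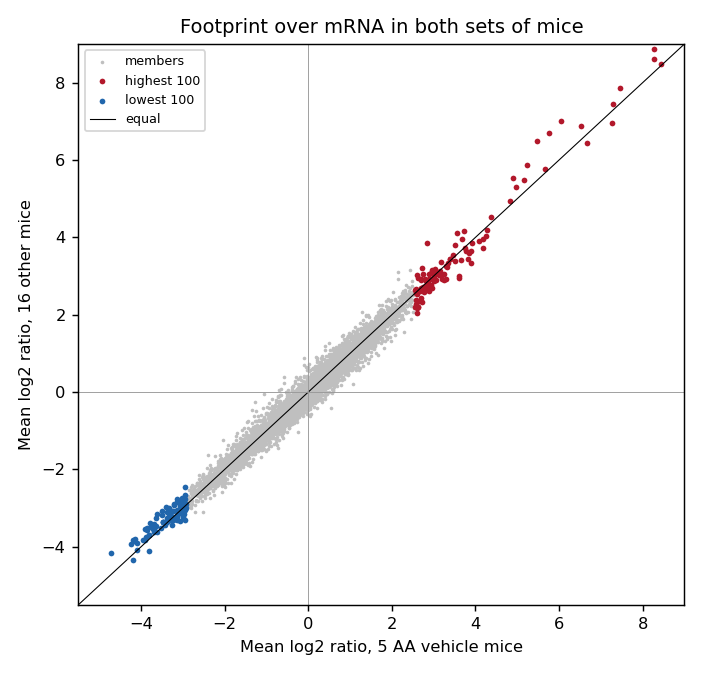
Mean log2 ratio of each member in the 5 AA vehicle mice against that in the 16 other mice, each relative to the median member; red and blue points are the highest and lowest 100 in the AA vehicle mice and the line marks equal values. Both ends keep their side in the other mice, and the Spearman rho across members is 0.98.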

How the data were processed

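Per the labels, each of the 21 mice gave 1 mRNA library by Smart-seq2 and 1 ribosome footprint library from the same lysate, so the mouse pairs both kinds; deviations from the kind means correlated by 0.01, 0.32, 0.04, 0.09 and 0.19 within the 5 AA vehicle mice, and in 4 of 5 mRNA correlated more with the footprints of another mouse (0.18, 0.08, 0.12 and 0.20 for replicates 1, 3, 4 and 5). The authors deposited raw counts per gene for all 42 libraries. Per the submitters' processing notes, cutadapt, Bowtie2, STAR, SAMtools and featureCounts were used with GRCm38 and mm10; no version, strand setting or handling of reads that fit several places is given in the sources used here. With no transcript or coding lengths used here, values are not per length.

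CPM were computed from the deposited total counts. A gene name reference gave a symbol to 55141 of 55487 rows. Protein-coding status, coordinates and promoter sequences were taken from RefSeq (GRCm38.p6), matched by symbol or synonym. Members need a mean of 10 CPM in both kinds. Ratios used a pseudocount of 0.5 CPM and were centred on the median member of each mouse; before centring the medians were -0.87, -1.08, -0.84, -1.12 and -0.76 in replicates 1 to 5. The main test was edgeR 4.0.16 (R 4.3.3), robust quasi-likelihood with mouse and kind as terms, on the deposited counts of genes that pass filterByExpr (minimum count 10, minimum total 15), with footprint library sizes set so that the median member is 0. It is made on the 10 AA vehicle libraries (19408 genes) and again on the 32 libraries of the other mice (19496 genes), with a Benjamini-Hochberg threshold of 0.05. Simulated data had 200 of 19408 genes changed. On them the AA vehicle fit recovered 20% of 2-fold and 71% of 4-fold changes with 6.19% false calls. In the real data 45.6% of genes tested passed above and 34.2% below, so these rates cannot be carried over to them. A gene that did not pass may still differ. The mice are separate animals with leukaemia from 1 source, and p-values measure the spread between them. Alternatives used limma 3.58.1, DESeq2 1.42.0, TMM and DESeq2 size factors, other pseudocounts and minimums, no mouse block, each mouse left out, and copies removed or added. Python 3.11.15 with pandas 2.3.3, numpy 2.4.6, scipy 1.17.1 and matplotlib 3.10.9 did the rest.

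The members and the 33 gene lists were chosen with earlier results of these data known. Genes named are the 15 highest and 15 lowest without a flagged copy (no Gm or Rik symbols), the 5 highest and lowest with one, 2 highest, 2 lowest and 2 of most mRNA per list, and a fixed panel; not all of these are described, and 2 genes are not reported here. The genes below the 15 highest, Cfl1, families, row pairs and sequences shown were chosen after their values were seen. Copies were flagged by pseudogene symbol or synonym only, so pseudogenes under other names, such as Gm4735 for Eno1, are missed. Protein-coding rows were left out of the copies after values were seen.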

Additional observations from a re-analysis of the deposited data

Results flagged for a closer look

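In 5 mice a value was marked when the gap between the highest or lowest mouse and the next exceeded the 95% limit of Dixon's test. Of 171 values examined 7 were marked. Chance marks about 1 in 20 groups, so this is no more than chance would mark. The median ratio of the mitochondrially encoded members was -1.29 in replicate 5 and -0.48 to -0.26 in the others. The median of the hnRNP genes was 0.80 in replicate 5 and 1.07 to 1.16 in the others. The median of the leukaemia and myeloid transcription factors was -0.71 in replicate 3 and -0.28 to -0.13 in the others. In replicate 4 the ratio of Tpt1 was 1.41 (others -0.71 to -0.11), that of Rack1 0.59 (others -0.73 to -0.36) and that of Psmb6 -2.05 (others -2.92 to -2.81). The ratio of Amd1 was 0.48 in replicate 3 and 1.00 to 1.11 in the others. No list or gene named had all AA vehicle mice on 1 side of the median member and all mice of another group on the opposite side.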

How the results depend on the processing

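Most results kept their direction under the alternatives. DESeq2 placed 1974 members above and 2021 below the median member, limma on the ratios 2063 and 2072, and a fit of all 42 libraries 2038 and 2095; without the replicate block (mouse) the counts were 1875 and 2047, which changed the call of no count or list and, among named genes, ended that of Eno1. TMM scaling moved the median member to -0.41, so that 1310 members were above and 2684 below (32.8% of those called above, against 49.7%), the medians of the elongation list, the mitochondrially encoded, uORF and SR lists became 0.52, -0.97, -1.13 and -1.15, and those of the C2H2 zinc finger, DNA replication, endoplasmic reticulum chaperone, TCA cycle and myeloid granule lists turned to -0.01, -0.04, -0.31, -0.05 and -0.12; in the 16 other mice TMM left 1174 members above. With a minimum of 20 CPM, 1255 of 3548 members were above and 1251 below, the uORF median was -0.89, the histone median 2.15 (4 members), and the zinc finger (-0.29, 16 members) and endoplasmic reticulum chaperone (-0.03) medians turned. With 5 CPM the uORF median was -0.53 and the histone median 8.03 (14 members). Without flagged copies the zinc finger median was 0.62 and the iron median 1.50 (3 members); with copies added the ribosomal protein median was 0.43. Beyond the construction of each alternative the cause was not tested.

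Leaving out each mouse in turn gave 1790 to 1957 members above and 1819 to 2030 below, an SD over members of 1.32 to 1.38, and medians of -0.63 to -0.21 for ribosomal proteins, 0.76 to 0.99 for the elongation list, -2.09 to -1.68 for OXPHOS, -0.67 to -0.31 for mitochondrially encoded genes (without replicate 5, -0.31), -0.75 to -0.65 for the uORF list, 6.15 to 7.03 for the histone list, -0.89 to -0.61 for SR factors and 0.31 to 0.53 for zinc finger genes; the endoplasmic reticulum chaperone median ran from -0.02 (without replicate 3) to 0.26. Over 131 genes named, 2393 of 2426 values kept direction and call, 14 lost a call (Eno1, Mrps5, Zfp36l2 and mt-Co1 under TMM, Hspe1 with copies added, Eno1 with a minimum of 20 CPM, without the replicate block and without replicate 1, 3 or 5, and Pabpc1 with a minimum of 5 CPM and without replicate 1, 2 or 5), 19 gained one (Aars, H13, Hars, Mcl1, Meis1, Myb, Nars and Rack1 under TMM, Hars and Myb with all 42 libraries, H13, Hars and Myb with a minimum of 20 CPM, Slc7a5 with 5 CPM, Tpt1 with copies added, Nars without replicate 3, and Myb, Rack1 and Slc7a5 without replicate 4) and 0 reversed. Ratios per coding and transcript length were planned and not run, since no table of lengths was used here. In footprints 1 count is 0.162 to 0.371 CPM, which limits members near the minimum.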

Other observations

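A few further gene lists lay close to the median member. Of 22 genes of cholesterol synthesis, 13 were members, with a median log2 ratio of 0.51 ± 0.16 (SD between mice, n = 5), 7 above and 1 below; 6 others reached 10 CPM in mRNA only. The TCA cycle list had 24 of 25 genes as members, 10 above and 5 below, and its median of 0.37 ± 0.32 turned to -0.05 with TMM scaling. Myeloid granule and lysozyme genes, which mark the granules of maturing myeloid cells, had 15 of 20 as members, 6 above and 7 below, and a median of 0.30 ± 0.30 that turned to -0.12 with TMM scaling. Interferon-stimulated and MHC class I genes had 21 of 31 as members, 3 above and 8 below, with a median of -0.27 ± 0.20; rows of MHC class I genes share sequence. Among mRNAs that recode a stop or shift frame, 3 of 6 were members, 0 above and 2 below, with a median of -1.01 ± 0.27.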
